A study of Homo sapiens with 6 samples.

Results

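The genes described here are those of the fibroblast growth factor (FGF) family that were followed as a group in H7 human embryonic stem cells (hESCs): the FGF genes FGF2, FGF4, FGF8, FGF13, FGF17 and FGF19 and the receptor genes FGFR1, FGFR2, FGFR3 and FGFR4. They were chosen by symbol, with earlier results of these data known, and are 10 of the 61155 symbols in the count table. All 10 passed the filter on low counts that left 19521 genes for testing. To ask how loss of S6K1, the ribosomal protein S6 kinase encoded by RPS6KB1, changed gene expression in undifferentiated cells, bulk RNA sequencing compared 3 libraries of wild-type (WT) hESCs with 3 libraries of S6K1-/- hESCs, both grown without feeder cells on Matrigel in E8 medium. The S6K1-/- cells carried CRISPR/Cas9 deletions in RPS6KB1 and came from clone #1, so genotype and clone cannot be told apart. The labels call the genotype a knockdown and give a time of week 5, and the treatment label ends with a passage on dexamethasone, isobutylmethylxanthine and insulin, whereas the study's methods describe knockout cells before differentiation with no such treatment. Nothing states that the 3 libraries of a group came from separate cultures, and the p-values then measure only the spread between these libraries.

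FGFs are signalling proteins of which most are secreted and bind receptor tyrosine kinases together with heparan sulfate at the cell surface. The bound receptor recruits adaptors that switch on the RAS-ERK cascade, and this cascade induces its own inhibitors. FGF2 signalling through ERK helps to keep hESCs undifferentiated, and E8 medium contains added FGF2, so the mRNA of FGF2 is not the only source of the protein in these cultures. FGF13 is named as an FGF by sequence only: it belongs to the intracellular FGF homologous factors, which stay inside the cell and bind sodium channels, and it is therefore described apart from the secreted ligands.

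The libraries held from 21896698 to 24473013 counts, and mitochondrial genes took 8.54% to 9.74% of them. RPS6KB1, the targeted gene, had 831, 791 and 777 counts in WT and 464, 464 and 438 counts in S6K1-/- hESCs, so that the log2 fold change was −0.75 (SE 0.0570, edgeR quasi-likelihood test, Benjamini-Hochberg adjusted p = 2.52e-07). Of the pluripotency markers, POU5F1, which encodes OCT4, was at 181 ± 3.71 CPM (counts per 1000000 library counts) in WT and 177 ± 16.5 CPM in S6K1-/- hESCs (SD, n = 3), and the 10 markers, 1 called lower and 1 higher (2.54% and 1.42% of all genes tested), DNMT3B (−0.35, adjusted p = 4.88e-05) and PRDM14 (0.29, adjusted p = 3.62e-04), together took 5314 to 5457 CPM and 5038 to 5045 CPM. TBXT, the defining marker of the primitive streak, had at most 8 counts in any library, and HAND1 of amnion and DCN of fibroblasts had 0 in all 6. The summed levels in WT and S6K1-/- hESCs were 30.6 to 33.7 and 28.8 to 30.5 CPM for 12 mesendoderm genes, 515 to 539 and 489 to 505 CPM for 12 neuroectoderm and eye field genes, and 8.91 to 10.4 and 9.79 to 10.1 CPM for 11 amnion and trophoblast genes. Single genes of these lists were called in both directions by the same test: CER1 (log2 fold change −2.29, adjusted p = 1.31e-05), SIX6 (−1.57, adjusted p = 1.41e-08) and OTX2 (−0.63, adjusted p = 6.03e-05) were lower, and PAX6 (0.76, adjusted p = 2.69e-04) and GATA2 (0.87, adjusted p = 6.39e-05) higher. The sums hide this spread: of the 8 mesendoderm genes tested 6 were below 0, with a median log2 fold change of −0.52, FOXA2 at −0.88 (adjusted p = 0.00108) and, above 0, MIXL1 and HHEX. Of the 3 amnion and trophoblast genes tested 2 were below 0, KRT7 at −0.82 (adjusted p = 0.00103) and GATA3 at −0.18, and their median was −0.18. The neuroectoderm sum was mostly NES, at 442 ± 10.8 CPM in WT and 424 ± 8.26 CPM in S6K1-/- hESCs, which was not called. PAX6 lost its call without WT replicate 1 (adjusted p 0.00186) or S6K1-/- replicate 2 (0.00150) or 3 (0.00228), and PRDM14 without WT replicate 1 (0.00159) or 3 (0.00232) or S6K1-/- replicate 1 (0.00390) or 2 (0.00248). The 10 listed genes of mesenchyme and fibroblasts summed to 194 to 199.9 CPM in WT and 89.8 to 92.1 CPM in S6K1-/- hESCs, and COL1A1, a collagen gene (log2 fold change −1.79, adjusted p = 6.95e-12 by the same test), TAGLN (−1.25, adjusted p = 4.18e-10) and COL1A2 (−0.50, adjusted p = 2.50e-06) were called lower. In bulk RNA, fewer cells of a type and less RNA per cell cannot be told apart, and the part of these shifts in the FGF results was not tested.

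Across all genes tested, 2.54% were called lower and 1.42% higher in S6K1-/- hESCs, 3.96% in all, with the study's threshold of 0.001 on the adjusted p. Among the 10 FGF ligand and receptor genes, 2 were called lower, FGF2 and FGF13, and 2 were called higher, FGF19 and FGFR3. The other 6 were not called. The median log2 fold change of the 10 genes was 0.03, against −0.0024 over all genes tested, and 5 of the 10 were below 0. Their summed level was 884 to 903 CPM in WT and 876 to 884 CPM in S6K1-/- hESCs. The groups of summed levels overlapped at their edges, while single members were called in both directions.

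**Figure D1:**
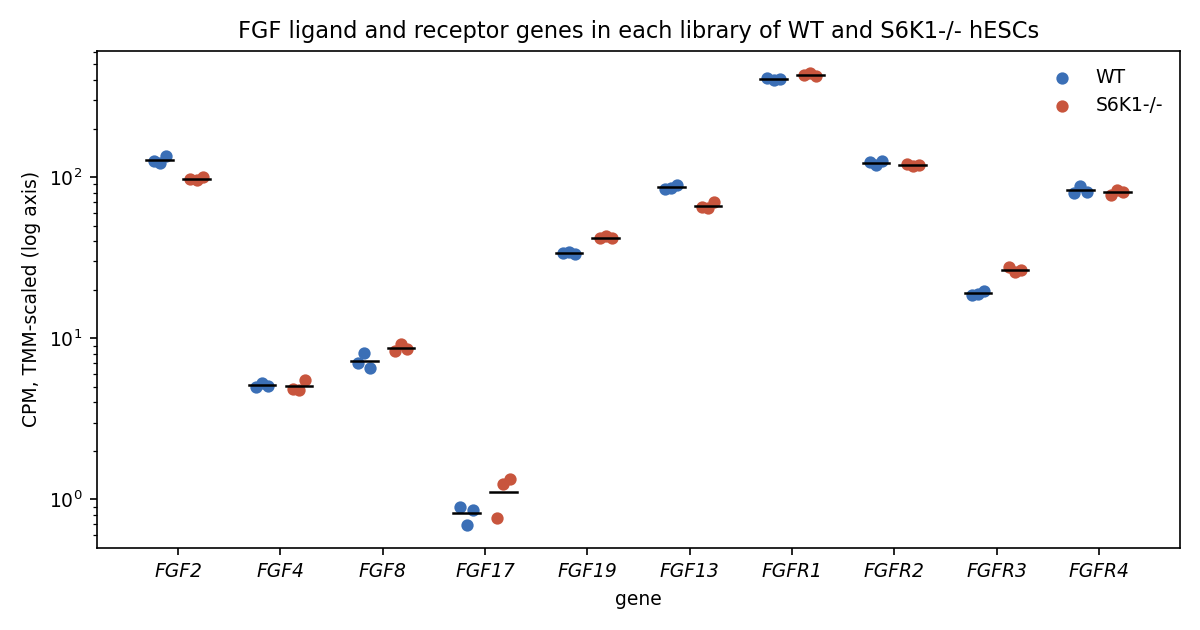
Level of each FGF gene and receptor gene in CPM (log axis) for the 3 WT (blue) and 3 S6K1-/- (red) libraries, each point being 1 library and each bar the group mean. FGF2 and FGF13 sit lower and FGF19 and FGFR3 higher in all 3 S6K1-/- libraries than in any WT library, while the points of FGF4, FGF17, FGFR2 and FGFR4 overlap.

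The sequences before the start of 3 of the 4 called genes are shown here because these genes carry the difference between the groups. They are from RefSeq (GRCh38.p14), which gave windows for 5 of the 10 members, FGF2, FGF13, FGFR2, FGFR3 and FGFR4. FGF2 is given for chr4:122826581-122826681 on the plus strand, the part of its window that lies before its first annotated exon. FGF13 is given for chrX:139205024-139205273 on the minus strand, the 1 of its 2 windows that holds a motif match, which starts inside the annotated gene (chrX:138614727-139222777), and FGFR3 for chr4:1793043-1793292 on the plus strand. Each reads 5′ to 3′, and the capitals mark matches, on either strand, to the GC box GGGCGG or the TATA box TATAAA.
FGF2: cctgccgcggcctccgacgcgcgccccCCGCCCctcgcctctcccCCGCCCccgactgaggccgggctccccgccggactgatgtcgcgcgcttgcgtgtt
FGF13: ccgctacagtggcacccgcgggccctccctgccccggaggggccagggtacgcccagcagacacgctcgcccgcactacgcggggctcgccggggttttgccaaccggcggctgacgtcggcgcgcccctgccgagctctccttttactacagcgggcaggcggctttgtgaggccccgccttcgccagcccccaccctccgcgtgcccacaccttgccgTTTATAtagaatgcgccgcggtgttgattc
FGFR3: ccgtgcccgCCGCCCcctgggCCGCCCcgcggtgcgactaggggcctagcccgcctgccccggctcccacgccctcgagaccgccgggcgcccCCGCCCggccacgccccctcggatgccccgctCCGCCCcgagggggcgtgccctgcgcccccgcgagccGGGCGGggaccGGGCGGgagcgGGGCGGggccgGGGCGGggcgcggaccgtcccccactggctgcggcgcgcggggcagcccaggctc
FGFR3 held 8 GC boxes, and 86.3% of the bases in its 300-base window were G or C. The window of FGF2 held 3 GC boxes, of which 2 lie in the sequence shown, and was 74.7% G or C. The window of FGF13 held no GC box but had a TATA box 30 bases before the start, and was 69.0% G or C. The other window of FGF13, chrX:138739304-138739603, held neither and was 37.7% G or C. Receptor genes that were not called had GC-rich windows too. The FGFR4 window chr5:177086665-177086964 held 7 GC boxes and was 78.7% G or C. The FGFR2 window chr10:121598395-121598694 held 5 GC boxes and was 79.3% G or C. The other windows of both genes held fewer GC boxes. Over all 35116 RefSeq windows of this length, 45% held a GC box and 11.5% a TATA box, and the median G and C content was 58.7%. The TEAD motif GGAATG, the AP-1 motif TGACTCA, the cAMP response element TGACGTCA, the ETS motif CCGGAAG and the E-box CACGTG were not found in the 3 windows of the sequences shown. They occurred in 14%, 4.95%, 1.85%, 10.3% and 7.26% of all windows. A match or its absence describes these letters and no binding.

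FGF2, the ligand that supports self-renewal of hESCs, was lower in S6K1-/- hESCs. Its gene (ENSG00000138685.18) lies on the plus strand of chromosome 4 at chr4:122826682-122898236 in GRCh38. FGF2 was measured at 127, 122 and 135 CPM in WT and at 96.9, 96.3 and 100.3 CPM in S6K1-/- hESCs, from 2184 to 3129 counts per library. The highest S6K1-/- library was thus below the lowest WT library. The level fell by 23.5%, a log2 fold change of −0.39 (SE 0.0439, 95% interval −0.48 to −0.29, adjusted p = 1.97e-05 by the edgeR quasi-likelihood test, Benjamini-Hochberg adjusted), which ranked 299 among the genes tested by p. The fold change stayed between −0.42 and −0.34 when any 1 library was left out, and FGF2 was called each time.

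FGF2 shares sequence with NUDT6, a nudix hydrolase gene on the opposite strand that is also known as the FGF2 antisense gene. In the GENCODE 44 annotation the genes have 804 exonic bases in common, in 2 blocks within the last exon of FGF2, which are 11.82% of the exonic bases of FGF2 and 12.22% of those of NUDT6. NUDT6 had 680, 704 and 740 counts in WT and 534, 511 and 527 counts in S6K1-/- hESCs. Every S6K1-/- library was lower for NUDT6 too, with a log2 fold change of −0.37 (SE 0.0683), but its adjusted p of 0.00158 by edgeR's quasi-likelihood test did not pass 0.001. At about the same fold change it did pass with DESeq2's Wald test (adjusted p = 0.000943), without the filter (1.22e-06) and with the replicate number as a block (0.000941). The library kit marks strand, but the strand setting of the counting is not given in the sources used here, so reads of the shared bases cannot be assigned to either gene here. Most exonic bases of FGF2 are outside the shared blocks.

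**Figure D2:**
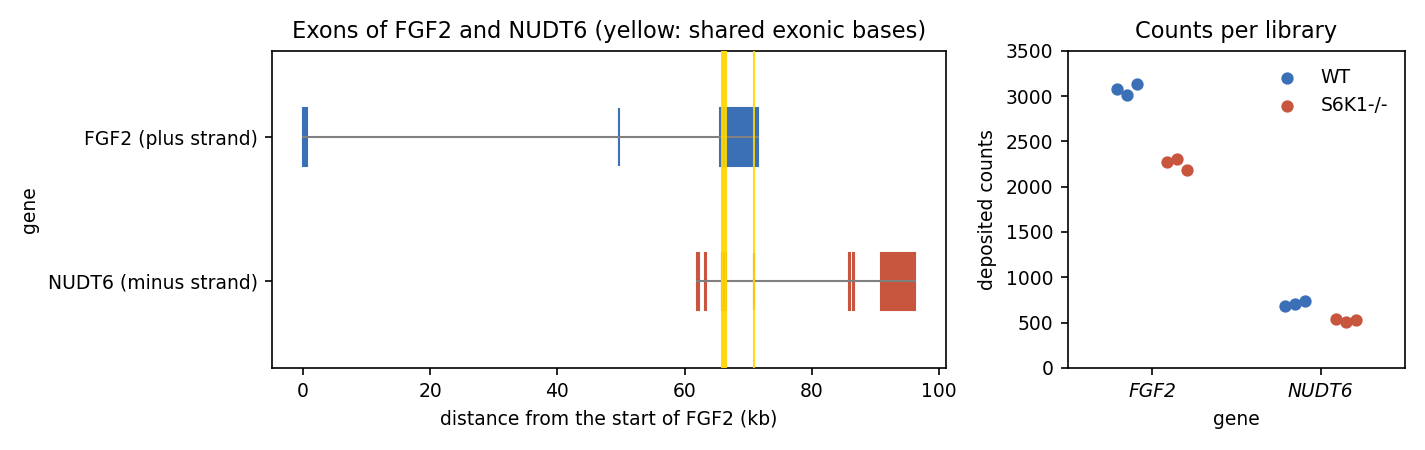
Left, exons of FGF2 (blue) and NUDT6 (red) by distance from the start of FGF2 in kb, with the 2 blocks of shared exonic bases in yellow; right, deposited counts of both genes, each point being 1 library. FGF2 fell from 3010 to 3129 counts in WT to 2184 to 2306 in S6K1-/- hESCs, and NUDT6 was at 680 to 740 and at 511 to 534.

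FGF19, an endocrine FGF that signals mainly with the coreceptor beta-klotho, was higher in S6K1-/- hESCs. It was measured at 33.7, 34.4 and 33.3 CPM in WT and at 41.7, 43.0 and 41.8 CPM in S6K1-/- hESCs. The groups did not overlap, and the spread within each was below 1 CPM (SD 0.552 and 0.726). The level was 24.6% higher, a log2 fold change of 0.32 (SE 0.0487, 95% interval 0.21 to 0.42, adjusted p = 3.52e-04 by the edgeR quasi-likelihood test, Benjamini-Hochberg adjusted). This call was the least stable of the 4. Without WT replicate 2 the adjusted p was 0.000587, but it was 0.00175 without WT replicate 1, 0.00224 without WT replicate 3 and 0.00240, 0.00273 and 0.00148 without S6K1-/- replicate 1, 2 and 3, while the fold change kept within 0.30 and 0.33. KLB, which encodes beta-klotho, had only 2 to 14 counts per library and KL, which encodes alpha-klotho, at most 3.

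FGF8 and FGF17, close relatives that act in patterning of the embryo and forebrain, were not called. FGF8 was measured at 7.07, 8.09 and 6.50 CPM in WT and at 8.35, 9.23 and 8.59 CPM in S6K1-/- hESCs. The groups did not overlap, with a log2 fold change of 0.27 and a 95% interval above 0, but the adjusted p did not pass the threshold (SE 0.0985, interval 0.06 to 0.48, adjusted p = 0.0850 by edgeR's quasi-likelihood test). FGF17 was near the lower limit of what could be tested, at 17 to 22 counts in WT and 18, 30 and 29 counts in S6K1-/- hESCs. Its groups overlapped, and its 95% interval on the log2 scale, −0.11 to 1.00, allowed both no change and a large rise.

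FGF4, a ligand made by pluripotent cells, was at 5.01, 5.29 and 5.04 CPM in WT and at 4.81, 4.80 and 5.51 CPM in S6K1-/- hESCs. The groups overlapped, and the log2 fold change was −0.02 (SE 0.109, 95% interval −0.26 to 0.21). FGF4 lies on the minus strand of chromosome 11 at chr11:69771022-69775341, the same chromosome as FGF19 (minus strand, chr11:69698238-69704022).

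FGF13, the intracellular family member, was also lower in S6K1-/- hESCs. It was measured at 84.6, 86.0 and 89.8 CPM in WT and at 65.5, 63.9 and 69.9 CPM in S6K1-/- hESCs. No S6K1-/- library reached the lowest WT library. The level fell by 23.5%, with a log2 fold change of −0.39 (SE 0.0454, 95% interval −0.48 to −0.29, adjusted p = 2.78e-05 by the edgeR quasi-likelihood test, Benjamini-Hochberg adjusted), and it was called with any 1 library left out. The antisense gene FGF13-AS1 shares 167 exonic bases with FGF13, 0.81% of the exonic bases of FGF13. It had 203, 181 and 144 counts in WT and 130, 136 and 127 counts in S6K1-/- hESCs, with a log2 fold change of −0.36 (SE 0.114) and an adjusted p of 0.0462, which did not pass the threshold. Another lncRNA on the opposite strand shares 142 exonic bases, 0.69%, with FGF13.

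Among the receptors, only FGFR3 was called. FGFR3, a receptor tyrosine kinase known from the growing skeleton and neural progenitors, was measured at 18.6, 18.7 and 19.6 CPM in WT and at 27.5, 25.8 and 26.4 CPM in S6K1-/- hESCs. All 3 S6K1-/- libraries were above all 3 WT libraries. The level was 40.1% higher, with a log2 fold change of 0.49 (SE 0.0602, 95% interval 0.36 to 0.61, adjusted p = 4.64e-05 by the edgeR quasi-likelihood test, Benjamini-Hochberg adjusted), the largest of the 4 called members. It was called with any 1 library left out, at fold changes of 0.46 to 0.52.

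FGFR1, the main FGF receptor of hESCs, was at 411, 400.3 and 406 CPM in WT and at 431, 440.3 and 422 CPM in S6K1-/- hESCs. The groups did not overlap, but the difference was small, a log2 fold change of 0.09 (SE 0.0385, 95% interval 0.004 to 0.17, adjusted p = 0.166 by edgeR's quasi-likelihood test). FGFR2, whose splice forms bind different ligands, was at 123, 119.7 and 126 CPM in WT and at 121, 117 and 119 CPM in S6K1-/- hESCs. FGFR4, the receptor on which FGF19 acts in liver, was at 80.2, 88.3 and 80.9 CPM and at 78.0, 82.9 and 81.3 CPM. The groups of both overlapped, and the intervals of their log2 fold changes, −0.13 to 0.04 for FGFR2 and −0.14 to 0.06 for FGFR4, left room for small changes only. Of all genes tested, 16.7% were lower and 14% higher in S6K1-/- hESCs with groups that did not overlap, 30.7% in all, and of the 10 members 2 were lower and 4 higher.

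**Figure D3:**
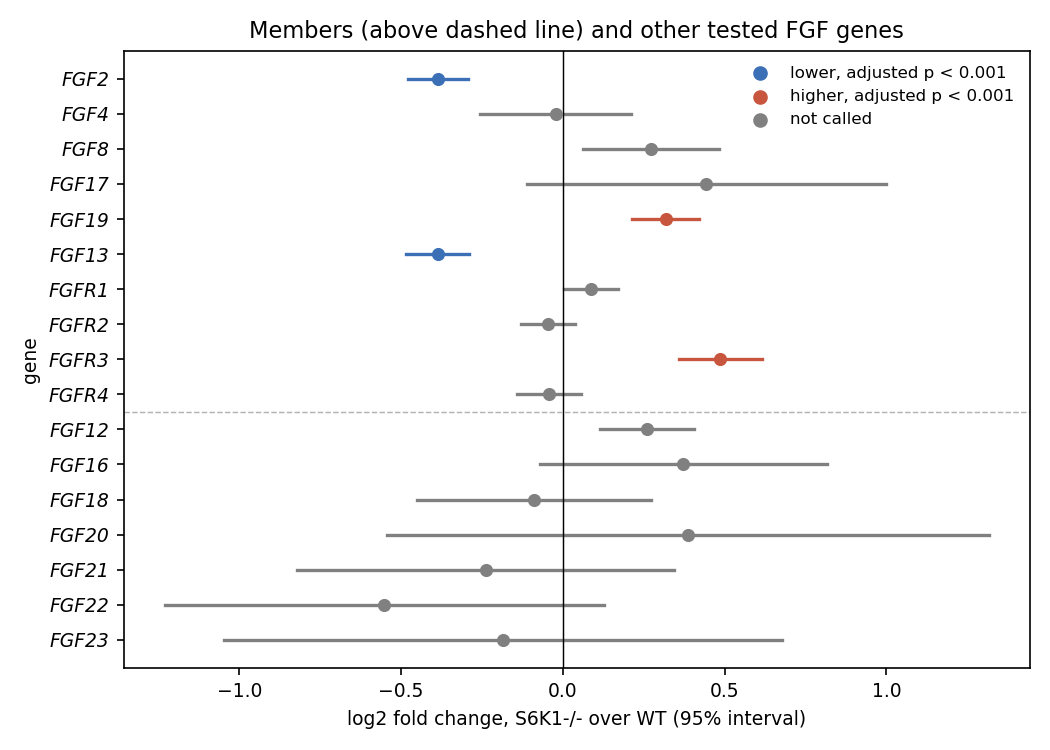
Log2 fold change of S6K1-/- over WT hESCs with its 95% interval for the 10 members (above the dashed line) and the 7 other FGF genes that passed the filter; blue marks genes called lower, red genes called higher and grey genes not called. FGF2 and FGF13 lie at −0.39, FGF19 at 0.32 and FGFR3 at 0.49, and no gene under the dashed line was called.

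To compare genes with each other, levels were divided by exon length and are given in CPM per kb of exon. In WT, FGFR1 had the highest level of the family at 23.6 ± 0.317 CPM per kb (SD, n = 3). FGF2 (18.8 ± 0.918), FGF19 (18.6 ± 0.303) and FGFR4 (17.3 ± 0.934) came next, and neighbours among these 3 overlapped between libraries. FGFR2 (6.53 ± 0.164), FGF8 (5.00 ± 0.560), FGF13 (4.19 ± 0.130), FGFR3 (3.91 ± 0.119), FGF4 (1.62 ± 0.0483) and FGF17 (0.249 ± 0.0341) followed without overlap between neighbours. In S6K1-/- hESCs FGF2 was at 14.4 ± 0.318 CPM per kb and came after FGF19 (23.1 ± 0.399) and FGFR4 (16.8 ± 0.523), with no overlap. FGFR3 (5.48 ± 0.179) was above FGF13 (3.20 ± 0.150), the opposite of their order in WT. The order depends on the length used, since FGFR1 and FGFR2 have many alternative exons: per kb of the longest transcript, WT FGFR1 was at 65.3, FGFR4 at 26.9 and FGFR2 at 17.6, against 18.8 for FGF2. The aligner was not a spliced one, so reads over exon junctions may be missing, more so in genes with short exons.

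Of the summed level of the 4 receptors, FGFR1 made up 46.0% ± 1.03 in WT and 46.7% ± 0.531 in S6K1-/- hESCs (SD, n = 3). FGFR4 made up 33.7% ± 1.51 and 31.3% ± 0.7998, and FGFR2 12.7% ± 0.413 and 11.8% ± 0.333. FGFR3 went from 7.62% ± 0.251 to 10.2% ± 0.417. The shares of FGFR2, FGFR3 and FGFR4 did not overlap between the groups. The exact two-sided permutation test gave p = 0.1 for each of these 3 receptors, the smallest p that 3 libraries against 3 allow, and 0.4 for FGFR1. Shares add up to a fixed total, so a larger share of 1 receptor makes the others smaller. By their own levels, FGFR2 and FGFR4 overlapped between the groups and were not called. Their log2 fold changes were −0.05 (adjusted p = 0.506) and −0.04 (adjusted p = 0.618) by edgeR's quasi-likelihood test. The shares depend on the length used: per kb of the longest transcript, FGFR3 made up 3.86% in WT and 5.20% in S6K1-/- hESCs and FGFR1 57.2% and 58.4%.

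**Figure D4:**
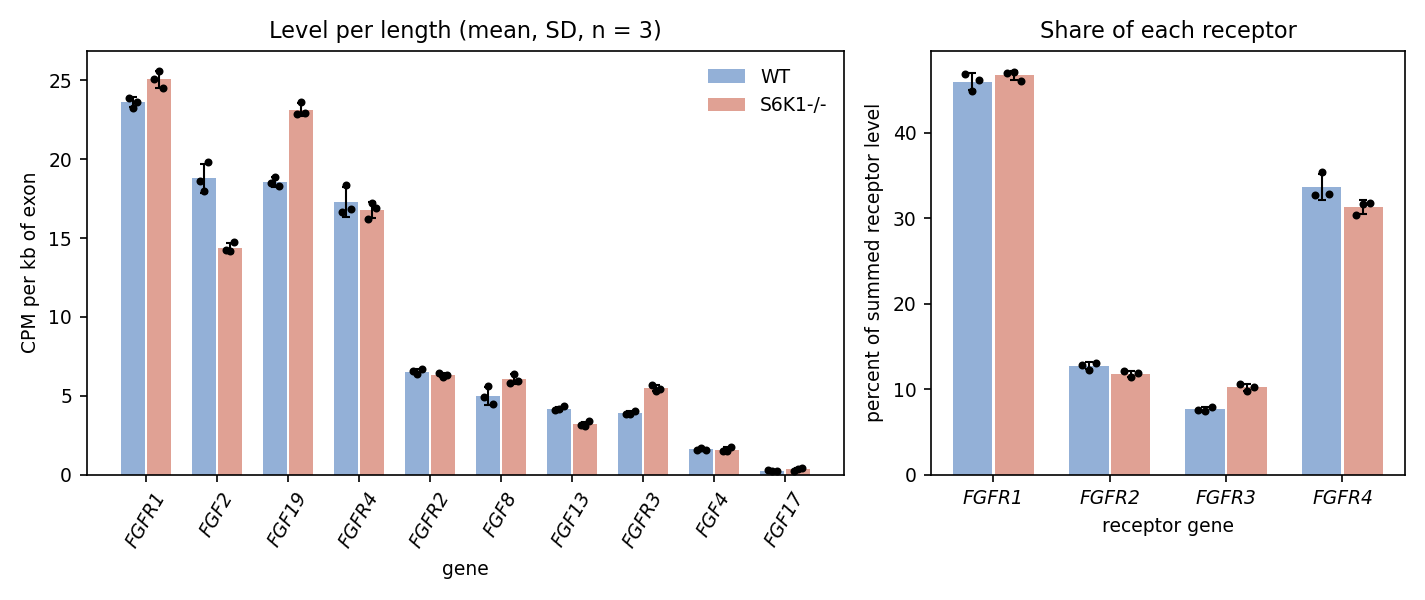
Left, level of each member in CPM per kb of exon, ordered by the WT mean; right, share of each receptor in the summed level of FGFR1 to FGFR4 in percent. Bars are means with SD (n = 3), dots single libraries: FGFR1 was highest in both groups, at 23.6 in WT, and the share of FGFR3 by exon length was 7.62% in WT and 10.2% in S6K1-/- hESCs.

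The count table held 16 other FGF genes, of which 7 passed the filter and 0 were called, either by edgeR's quasi-likelihood test or by DESeq2's Wald test. With edgeR 1 of them was higher both at an unadjusted p below 0.05 (11.8% of all genes) and at an adjusted p below 0.05 (5.47%). This was FGF12, an intracellular FGF homologous factor like FGF13, with 404, 436 and 445 counts in WT and 496, 526 and 455 counts in S6K1-/- hESCs. Its groups did not overlap in CPM, and its log2 fold change of 0.26 (SE 0.0678, adjusted p = 0.0181 by edgeR's quasi-likelihood test) was of the opposite sign to that of FGF13. The 9 genes that did not pass had at most 11 counts in any library. FGF5, a gene induced when pluripotent cells leave the naive state in mouse, had 0 counts in every library, which allows a level of up to 0.123 to 0.137 CPM per library when 3 counts are taken as the limit.

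Coreceptors and FGF-binding proteins were next compared, and 0 of the 11 genes tested were called by edgeR's quasi-likelihood test, with 2 lower and 2 higher at an unadjusted p below 0.05, where 14.5% and 11.8% of all genes were, 26.4% in all. With the Wald test of DESeq2 there were 1 lower and 1 higher call, where 1.98% and 1.41% of all genes it tested were called. The median log2 fold change was −0.02. The 3 smallest adjusted p values belonged to adhesion molecules known to interact with FGF receptors, and those of NCAM1 and L1CAM lay just above the threshold. NCAM1 had a log2 fold change of 0.49 (SE 0.0849, adjusted p = 0.00109 by edgeR's quasi-likelihood test) and L1CAM one of −0.38 (SE 0.0666, adjusted p = 0.00113). CDH2, N-cadherin, was at 0.17 (adjusted p = 0.0189). Leaving out WT replicate 1 brought NCAM1 to an adjusted p of 0.000205, and leaving out S6K1-/- replicate 2 brought L1CAM to 0.000616. Each of the 5 other libraries left out raised the adjusted p instead, to between 0.00165 and 0.00817 for NCAM1 and between 0.00199 and 0.00992 for L1CAM.

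Heparan sulfate, the sugar chain that holds FGF and receptor together, had 27 tested genes for its core proteins and enzymes. Of these, 3 were called lower and 1 higher, where 2.54% and 1.42% of all genes were, with a median log2 fold change of −0.03. HS6ST2, a transferase that adds sulfate at the 6-O position, had 712, 724 and 664 counts in WT and 399, 376 and 386 counts in S6K1-/- hESCs. It was the gene of this list with the strongest call, at a log2 fold change of −0.79 (SE 0.0630, adjusted p = 4.28e-07 by edgeR's quasi-likelihood test). SULF1, which removes 6-O sulfate outside the cell, was also lower, at −0.56 (SE 0.0696, adjusted p = 5.20e-05). Among the glypican core protein genes, GPC3 fell from 1106, 1137 and 983 counts to 726, 758 and 728 counts, a log2 fold change of −0.48 (SE 0.0546, adjusted p = 1.93e-05). GPC2 was higher, at 0.34 (SE 0.0543, adjusted p = 5.49e-04), but was called in only 1 of the 6 fits that left out a library, the one without WT replicate 1 (adjusted p 0.000574 to 0.00433 over the 6).

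The adaptors and kinases that carry the signal from receptor to ERK had 0 calls among 27 genes tested with edgeR, and 1 higher with DESeq2's Wald test, with a median log2 fold change of 0.03 in the edgeR fit. At an unadjusted p below 0.05, edgeR had 4 lower and 6 higher, where 14.5% and 11.8% of all genes were. MAPK3, which encodes ERK1, had a log2 fold change of 0.30 (SE 0.0526, adjusted p = 0.00124 by edgeR's quasi-likelihood test). The adaptor genes SHC1 (−0.16, adjusted p = 0.0111) and SHB (−0.35, adjusted p = 0.0294) had values below 0. None of the 3 passed 0.001. At an adjusted p below 0.05, 3 of the 27 genes were lower and 2 higher, where 8.31% and 5.47% of all genes were.

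Targets and feedback inhibitors of FGF-ERK signalling had 4 genes called higher and 1 called lower among 25 tested, where 1.42% and 2.54% of all genes were, with a median log2 fold change of 0.06. DUSP5 and DUSP6 encode phosphatases that act on ERK. DUSP5 had 1049, 1064 and 949 counts in WT and 1276, 1422 and 1219 counts in S6K1-/- hESCs, which gave a log2 fold change of 0.42 (SE 0.0494, adjusted p = 3.18e-05 by edgeR's quasi-likelihood test). DUSP6 was higher by 0.23 on the log2 scale (SE 0.0376, adjusted p = 6.74e-04). ETV5, a transcription factor of the ETS family, was higher by 0.28 (SE 0.0396, adjusted p = 1.76e-04), and FOS, an immediate early gene, by 0.65 (SE 0.101, adjusted p = 4.05e-04). FOS was at only 5.16 CPM in WT and 8.08 CPM in S6K1-/- hESCs. Other immediate early genes of the list were not called by the same test. These were EGR1 (−0.12, adjusted p = 0.833), EGR2 (−0.34, adjusted p = 0.582), IER2 (0.06, adjusted p = 0.433) and IER3 (0.04, adjusted p = 0.944). PHLDA1, a pleckstrin homology-like protein induced by growth factors, was lower, at −0.35 (SE 0.0453, adjusted p = 7.34e-05).

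These calls were of unequal stability. DUSP5 was called with any 1 library left out, but DUSP6 with none of the 6 left out (adjusted p 0.00122 to 0.00577) and FOS only without S6K1-/- replicate 1 (0.000399 to 0.00315). ETV5 lost its call without S6K1-/- replicate 1 (0.00178) or 3 (0.00143), and PHLDA1 without S6K1-/- replicate 1 (0.00106). The sprouty genes, which encode inhibitors of receptor tyrosine kinase signalling and were picked after their values were seen, did not pass the threshold: SPRY1 had a log2 fold change of 0.22 (adjusted p = 0.00292), SPRY4 at 0.18 (adjusted p = 0.0117) and SPRY2 at 0.15 (adjusted p = 0.0410). FOSL1 and MYC, also picked after their values were seen, were not called and went the other way. Their log2 fold changes were −0.28 (adjusted p = 0.0934) and −0.13 (adjusted p = 0.0679) by edgeR's quasi-likelihood test. Of the 25 genes, 9 had a negative log2 fold change. At an unadjusted p below 0.05, 9 of the 25 genes were higher and 3 lower, where 11.8% and 14.5% of all genes were. At an adjusted p below 0.05, 8 of the 25 genes were higher and 1 lower, where 5.47% and 8.31% of all genes were, 13.8% in all.

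**Figure D5:**
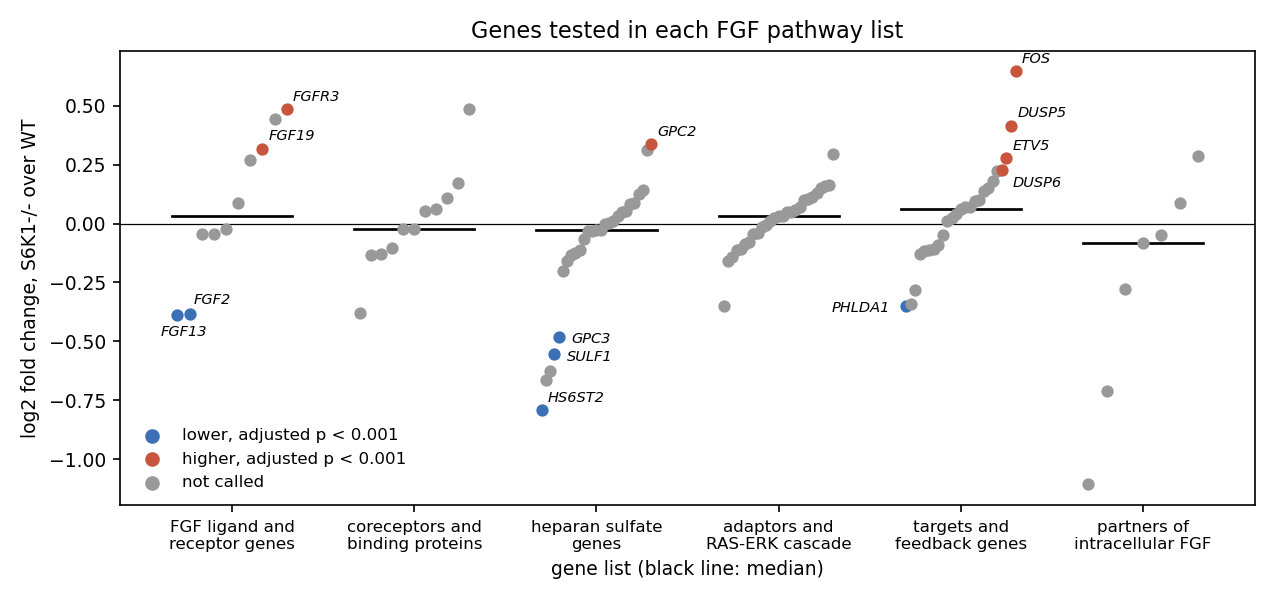
Log2 fold change of S6K1-/- over WT hESCs for each gene tested, by list, with the list's median as a black line; blue marks genes called lower, red genes called higher and grey genes not called. The medians of all 6 lists lie between −0.08 and 0.06, while single genes reach from −1.11 for SCN2A to 0.65 for FOS.

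The channels and scaffolds that bind the intracellular FGFs had 0 calls among 7 tested genes with edgeR and with DESeq2's Wald test, and 3 lower and 1 higher at an unadjusted p below 0.05 with edgeR (14.5% and 11.8% of all genes), with a median log2 fold change of −0.08. SCN8A, a sodium channel gene, was at 0.29 (SE 0.0680, adjusted p = 0.00982 by edgeR's quasi-likelihood test), and the channel genes SCN1A and SCN2A were at −0.71 (adjusted p = 0.0121) and −1.11 (adjusted p = 0.0412). SCN2A had only 14 to 26 counts in WT and 7 to 12 counts in S6K1-/- hESCs. A list drawn up as possible antisense or overlapping partners had 15 tested genes, of which the annotation shows only NUDT6, FGF13-AS1 and LETM2 to overlap a member. Of the 15, 0 were called by edgeR, with 2 lower at an unadjusted p below 0.05 (14.5% of all genes), NUDT6 and FGF13-AS1, and 1 lower by DESeq2's Wald test, NUDT6. LETM2, which shares 138 exonic bases with FGFR1 on the opposite strand, was at −0.13 (adjusted p = 0.590). A lncRNA on the opposite strand shares 387 exonic bases, 2.25%, with FGFR1. For the 7 members other than FGF2, FGF13 and FGFR1, no shared exonic bases with another gene were listed.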

How the data were processed

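Bulk RNA sequencing of 3 WT and 3 S6K1-/- libraries was analysed. Per the labels and the study's methods, poly(A) libraries were made with a stranded kit, and the authors trimmed reads with Trim Galore 0.6.5, aligned them to GRCh38 with Bowtie2 2.4.5, sorted them with Sambamba and counted them per gene with featureCounts. The gene annotation and the strand setting are not given in the sources used here. The authors deposited the counts as whole numbers without normalization. They also deposited a table of their own DESeq2 1.37.4 comparison, with log2 fold changes, statistics and p-values, which was not used.

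Genes were kept with edgeR's filterByExpr (19521 of 61155 symbols), libraries were scaled by TMM (factors 0.989 to 1.011), and groups were compared with edgeR 4.0.16 in R 4.3.3 by glmQLFit and glmQLFTest with genotype alone in the model. Benjamini-Hochberg adjustment ran over all genes tested, and adjusted p-values under 0.001 were called. SE is the size of the log2 fold change over the square root of F. CPM used the TMM-scaled totals. Replicates of a group differed by more than sampling noise (chi-square per degree of freedom 2.23 to 4.51), so none was treated as a copy of another and all 6 libraries were kept. These values cannot tell whether the libraries came from separate cultures. At these depths, the steps were tested on data simulated for this comparison over 19262 genes: they called 76% of 100 genes changed by 0.4 on the log2 scale and 100% of 100 changed by 1, with 2 false calls. The changed genes were drawn only from genes with higher counts, and all genes were given the same dispersion. These rates therefore do not cover genes with low counts, such as FGF17, or genes that vary more.

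Exon lengths, positions and overlaps were taken from GENCODE 44 (GRCh38) by symbol, and windows from 250 bases before to 50 after each gene start from RefSeq. The floor of 3 counts used for a count of 0 covers counting error only.

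The members and gene lists were chosen with earlier results of these data known. Named are all members and RPS6KB1, and of the other FGF genes, given by counts, FGF12 and FGF5, the latter added after its values were seen. Also named are of each list the called genes, up to 8, or where fewer than 3 were called the 3 with the smallest p. Of the antisense list the genes that overlap a member are named. KLB, KL, NES, FOXA2, MIXL1, HHEX, KRT7, GATA3, the sprouty genes, FOSL1, MYC, EGR1, EGR2, IER2 and IER3 were added after their values were seen. Marker lists are given by their summed levels, defining genes and called genes. Alternatives were DESeq2 size factors and DESeq2's Wald test (1.42.0), no filter, at least 10 counts in every library, a replicate block, an adjusted p of 0.05, the longest transcript as length, and leaving out each library.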

Additional observations from a re-analysis of the deposited data

How the results depend on the processing

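FGF2, FGF13, FGFR3 and RPS6KB1 kept direction and call under all 12 alternatives. Of 132 values for the members and RPS6KB1, 123 kept both, 5 lost the call (FGF19, with a library left out) and 4, all uncalled, changed sign: FGF4 to 0.0041 without WT replicate 2, 0.0112 without S6K1-/- replicate 1 and 0.013 without replicate 2, and FGFR4 to 0.004 without WT replicate 2. POU5F1 went to 0.0055 and 6e-04 without S6K1-/- replicates 1 and 2. With any library left out, FGF4 ranged from −0.081 to 0.013, FGFR4 from −0.0613 to 0.004, POU5F1 from −0.1079 to 0.0055 and FGF19 from 0.3042 to 0.3311. Of 429 values for 36 other genes that were followed, 371 kept direction and call.

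Over all genes, 496 lower and 278 higher calls became 982 and 591 without the filter (2.6% and 1.57% of genes tested) and 1622 and 1067 (8.31% and 5.47%) at an adjusted p below 0.05. With a library left out they were 313 to 445 lower and 175 to 235 higher, and members called higher 1 to 2.

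At 0.05, heparan sulfate genes had 6 lower, RAS-ERK genes 3 lower and 2 higher, targets 8 higher, channel partners 2 lower and 1 higher, coreceptors 1 lower and 2 higher, other FGF genes 1 higher and the possible antisense or overlapping genes 2 lower. Without the filter, coreceptors had 1 lower and 1 higher, partners 1 lower and 1 higher, RAS-ERK genes 1 higher and the possible antisense or overlapping genes 1 lower. With DESeq2's Wald test (1.98% of all genes lower, 1.41% higher), coreceptors had 1 lower and 1 higher, RAS-ERK genes 1 higher and the possible antisense or overlapping genes 1 lower. With a library left out, coreceptors had 0 to 1 in each direction, heparan sulfate genes 0 to 1 higher and targets 0 to 1 lower and 1 to 2 higher. The causes were not tested.

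Samples share replicate numbers, and deviations of same-numbered samples correlated at 0.103, 0.043 and 0.087 over 12447 genes. Differently numbered samples were not compared in this way, so these values cannot show whether the numbers pair the samples. The main fit did not use the numbers as pairs. With the replicate block (2.17% of all genes lower, 1.23% higher), coreceptors had 1 lower and 1 higher, heparan sulfate genes 0 higher, targets 2 higher and the possible antisense or overlapping genes 1 lower, and no member changed its call.

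Per kb of the longest transcript, WT levels were 6.03 for FGF8, 4.43 for FGF13, 0.318 for FGF17, 65.3 for FGFR1, 17.6 for FGFR2, 4.40 for FGFR3 and 26.9 for FGFR4. Receptor shares were then 57.2%, 15.4%, 3.86% and 23.5% for FGFR1 to FGFR4 in WT and 58.4%, 14.4%, 5.20% and 22.0% in S6K1-/- hESCs. FGF17 and the FGF genes under 20 counts are limited by depth.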
